A study of Mus musculus with 37 samples.

Results

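The 37 lung libraries of the series differed widely in a marker of the airways and a marker of the alveoli. They were ranked by the log2 ratio of the abundance of Scgb1a1 in counts scaled to 1000000 per library (CPM), the main secretory protein of the club cells that line the airways, to that of Sftpc, surfactant protein C, made by alveolar type 2 cells. A pseudocount of 1 CPM was added to both. The 12 libraries of highest ratio are called airway-rich and the 12 of lowest ratio alveolus-rich, which makes 24 of 37 libraries, with 13 in between. The classes were thus chosen by the measured values of Scgb1a1 and Sftpc, so those values are given as a description only and neither gene was tested.

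Each library came from the lung of 1 C57BL/6 mouse. No age was given in the sources used here. The groups were mock irradiation (mock, 7 mice), mock irradiation with 12 mM nicotinamide riboside (NR) in the drinking water (mock + NR, 5), 300 MeV/u silicon ions at 0.75 Gy (silicon, 7), the same ions with NR (silicon + NR, 6), a simulated galactic cosmic ray field of 5 ions at 0.75 Gy (GCR, 7) and 137-Cs gamma rays at 0.75 Gy (gamma, 5). Replicate numbers only name a mouse. RNA was read from whole tissue, so fewer cells of a type and less RNA per cell cannot be told apart in any result given here.

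As background, the conducting airways are lined mainly by club cells, which secrete protective proteins and metabolise foreign compounds, and by ciliated cells, whose motile cilia carry mucus out of the lung. The alveoli are lined by flat type 1 cells, across which gas diffuses, and by cuboidal type 2 cells, which make surfactant. A dense net of capillaries, with fibroblasts and pericytes, wraps each alveolus, and the mesothelium covers the outer surface of the lung.

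Scgb1a1 ran from 25009 to 301070 CPM over the 37 libraries and Sftpc from 307 to 36039 CPM. Scgb1a1 overlapped between the classes, at 77319 to 301070 CPM in the airway-rich and 25009 to 177367 CPM in the alveolus-rich libraries. Sftpc did not overlap, at 307 to 5192 and 5441 to 36039 CPM. The class names therefore stand for the ratio and not for the level of Scgb1a1. The log2 ratio lay between 5.47 and 8.28 in the airway-rich libraries, with a mean of 6.68, and between 1.34 and 3.06 in the alveolus-rich libraries, with a mean of 2.38. The gap between the class means was 4.295 on the log2 scale. The ranking had no break at its limits: the nearest libraries outside were gamma replicate 4 (5.45) and silicon + NR replicate 5 (5.13) on the airway side and GCR replicate 6 (3.32) and GCR replicate 4 (3.33) on the alveolar side.

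**Figure D1:**
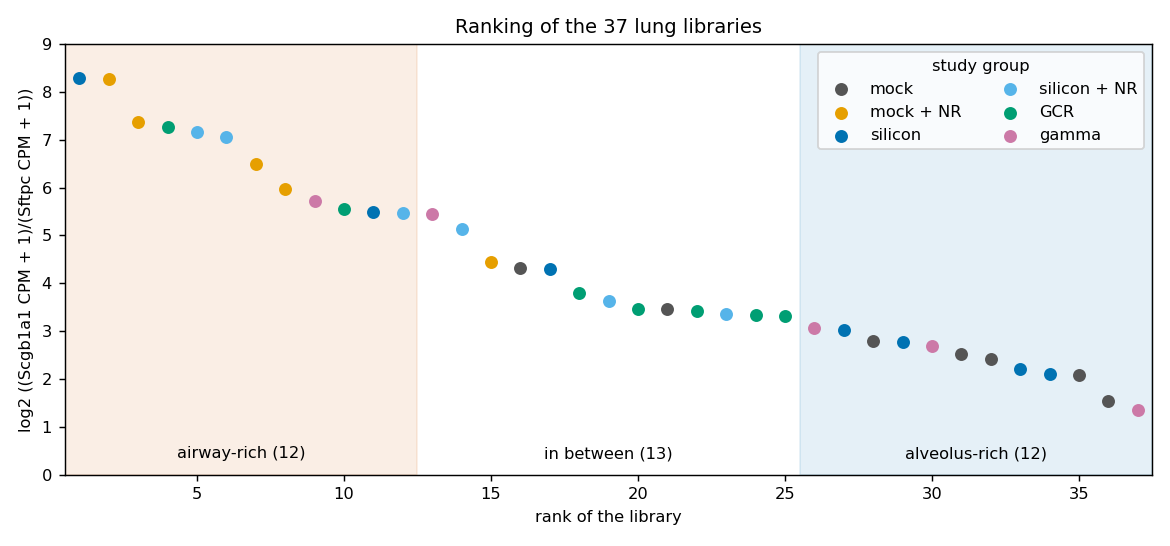
Log2 ratio of Scgb1a1 to Sftpc (y axis, from CPM with a pseudocount of 1) for the 37 libraries in falling order (x axis, rank), coloured by study group and shaded by class. The 12 airway-rich libraries span 5.47 to 8.28 and the 12 alveolus-rich libraries 1.34 to 3.06, with the 13 others filling the space between without a gap.

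The classes were spread unevenly over the study's groups. The airway-rich libraries were 4 mock + NR, 3 silicon + NR, 2 silicon, 2 GCR and 1 gamma library, and no mock library. The alveolus-rich libraries were 5 mock, 4 silicon and 3 gamma libraries. With study group as a covariate, the class difference therefore rested on the 10 silicon and gamma libraries, because the other groups held 1 class only. Within silicon the 2 airway-rich libraries came from males and had less than 1000 CPM of Acta1, skeletal muscle actin, whereas the 4 alveolus-rich libraries came from females and all had more. In that group class, sex and muscle cannot be told apart. The 1 airway-rich gamma library, replicate 5, was labelled female but had 3.73 CPM of Xist and 200.1 CPM summed over Y-linked genes. The male-labelled airway-rich and alveolus-rich libraries had 1.14 to 7.25 CPM of Xist, so that library goes against its label.

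Libraries that stood apart for other tissues fell in both classes. More than 1000 CPM of Acta1 was found in 3 airway-rich, 6 alveolus-rich and 4 of the other libraries. More than 100000 CPM of the ribosomal RNA precursor Rn45s was found in 2 airway-rich libraries (GCR replicates 2 and 5), 1 alveolus-rich library and 1 in between. Lymphoid tissue, marked by Ccl19 above 100 CPM, was seen in 2 airway-rich libraries and 1 alveolus-rich library, and heart muscle, marked by Nppa above 10000 CPM, in 1 alveolus-rich library and 1 in between (gamma replicates 3 and 4). Total counts did not separate the classes, at 16585139 to 32362923 (median 27704160.5) and 18232729 to 35230361 (median 27783364). The part of these features in the results was not tested except where values without such libraries are given.

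Of 17367 genes tested between the classes, edgeR called 17 (0.0979%) at an adjusted p under 0.05, of which 1 was higher (0.00576%) and 16 were lower (0.0921%) in the airway-rich libraries. The unadjusted p was under 0.05 for 3544 genes, and the median log2 fold change of all genes was -0.04. The 16 lower genes included Fbln5, a protein needed to build elastic fibres; Cd34, a surface protein of capillary endothelium and stromal cells; Fgf18, a growth factor of lung development; and Prelp, a small proteoglycan of connective tissue. The one higher transcript was C130026I21Rik. Without silicon replicate 3, the airway-rich library of highest ratio, no gene was called, whereas without mock + NR replicate 2 the counts were 9 higher and 95 lower. Leaving out any other library gave 0 to 4 higher and 1 to 42 lower genes. Without the 9 libraries rich in Acta1, or without the lymphoid-rich and heart-rich libraries, no gene was called either. The first of these fits rested on 1 airway-rich and 3 alveolus-rich gamma libraries. The second lost silicon replicates 3 and 6 and gamma replicate 3 from the groups that informed the test. With so few libraries left, neither fit can show whether the calls depended on those left out. With the same classes DESeq2 called 390 genes higher and 526 lower. By CPM alone, with no model, 79 genes (0.455%) were lower in every airway-rich than in every alveolus-rich library and 7 genes (0.0403%) higher, and 11 of the 17 called genes were among them.

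Fbln5 (chr12:101746565-101819055, mm10, minus strand) had 16.4 CPM in the lowest, 40.7 in the median and 55.3 in the highest airway-rich library, against 65.3, 80.9 and 165 CPM in the alveolus-rich libraries. The classes did not overlap, and the log2 fold change was -1.60 (SE 0.24, adjusted p = 0.0214). In the silicon group the 2 airway-rich libraries had 16.4 and 27.6 CPM and the 4 alveolus-rich libraries 65.3 to 86.0 CPM. In the gamma group the airway-rich library had 46.9 CPM and the alveolus-rich libraries 99.8, 136 and 165 CPM. Because the classes did not overlap, this order inside the 2 groups was already given and is no separate result. As background, mice that lack Fbln5 develop enlarged air spaces.

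Cd34 (chr1:194938819-194961279, plus strand) had 29.8, 55.8 and 66.5 CPM in the lowest, median and highest airway-rich library and 71.1, 114 and 163 CPM in the alveolus-rich libraries. These ranges did not overlap either, and Cd34 was lower by a log2 fold change of -1.41 (SE 0.24, adjusted p = 0.0448). Prelp (chr1:133910304-133921414, minus strand) likewise kept the classes apart, at 30.2, 47.0 and 67.4 CPM against 80.3, 132 and 232 CPM, with a log2 fold change of -1.24 (SE 0.22, adjusted p = 0.0448). Snrk, a kinase with known roles in endothelium and heart, had the smallest change of the 17, from a median of 77.4 CPM in the alveolus-rich to 41.2 CPM in the airway-rich libraries (log2 fold change -0.83, SE 0.16), again with no overlap.

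Ptprr, a receptor-type protein tyrosine phosphatase (chr10:116018213-116274932, plus strand), was of low level throughout, at 0.459, 0.799 and 1.73 CPM in the lowest, median and highest airway-rich library and 2.08, 3.28 and 4.54 CPM in the alveolus-rich libraries. The classes did not overlap, and at -2.26 (SE 0.32) Ptprr had the lowest adjusted p of those given here, 0.0137. Fgf18 (chr11:33117430-33147400, minus strand) moved by the same log2 fold change of -2.26 (SE 0.44, adjusted p = 0.0492), from 4.79, 7.41 and 14.8 CPM down to 0.563, 2.12 and 3.44 CPM. Its classes did not overlap. Gpm6a, a membrane glycoprotein that is high in mesothelium (chr8:54954843-55060871, plus strand), had the largest change of the 16, -2.44 (SE 0.46, adjusted p = 0.0492), but its ranges overlapped: 5.60, 17.8 and 46.9 CPM in the airway-rich and 37.2, 94.3 and 323 CPM in the alveolus-rich libraries.

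The other lower genes moved by log2 fold changes from -2.08 to -1.12. They were the tight junction protein Cldn15, the aminopeptidase Xpnpep2, the fucosyltransferase Fut10, the Rap effector Radil, the secreted protein Olfml1, the semaphorin receptor Plxna4, the microtubule protein Map6, the endocytic adaptor Dab2 and the chemerin-binding receptor Ccrl2. Xpnpep2, Olfml1, Plxna4, Map6 and Ccrl2 did not overlap between the classes, whereas Cldn15, Fut10, Radil and Dab2 did. C130026I21Rik had 2.34, 6.30 and 21.7 CPM in the airway-rich and 1.20, 3.57 and 7.33 CPM in the alveolus-rich libraries, so its ranges overlapped widely despite a fitted log2 fold change of 2.32 (SE 0.44, adjusted p = 0.0492).

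Because the classes and the groups were so unevenly crossed, 2 further fits on these counts are given beside the class fit. The first used all 37 libraries with the log2 ratio as a continuous term and group as a covariate. Its log2 changes are stated over the gap of 4.295 between the class means. It called 1921 of 17320 genes (11.1%), 569 higher (3.29%) and 1352 lower (7.81%) with rising ratio, with a median of 0.07 over all genes. With Scgb1a1 and Sftpc removed before library sizes were set, since Scgb1a1 alone is a large share of some libraries, the counts were 563 and 1338. The second compared the highest 2 with the lowest 2 libraries inside each of the 6 groups, so every group had both sides. These sides are ranks inside a group and not the classes. Mock + NR replicate 4, for example, is airway-rich but was on the low side. This fit called 1401 of 16932 genes (8.27%), 294 higher (1.74%) and 1107 lower (6.54%), with a median of 0.04. Without the libraries rich in Acta1, this comparison inside groups called no gene by edgeR. Only GCR, gamma and mock + NR then kept libraries on both sides. That fit therefore cannot show whether the calls depended on the libraries left out. Each count inside groups given for a list is to be read with that. The fits share libraries and are not independent. All 17 genes of the class fit were also called over all 37 libraries. In the comparison inside groups 15 of the 16 lower genes were called, Fut10 being the exception, and C130026I21Rik was not (log2 fold change 0.85, adjusted p = 0.222). Of the 1352 genes lower over all 37 libraries 71.45% were also lower inside groups (966 genes, 87.3% of the latter), against 34.3% of the 569 higher genes (195 genes, 66.3% of the latter).

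**Figure D2:**
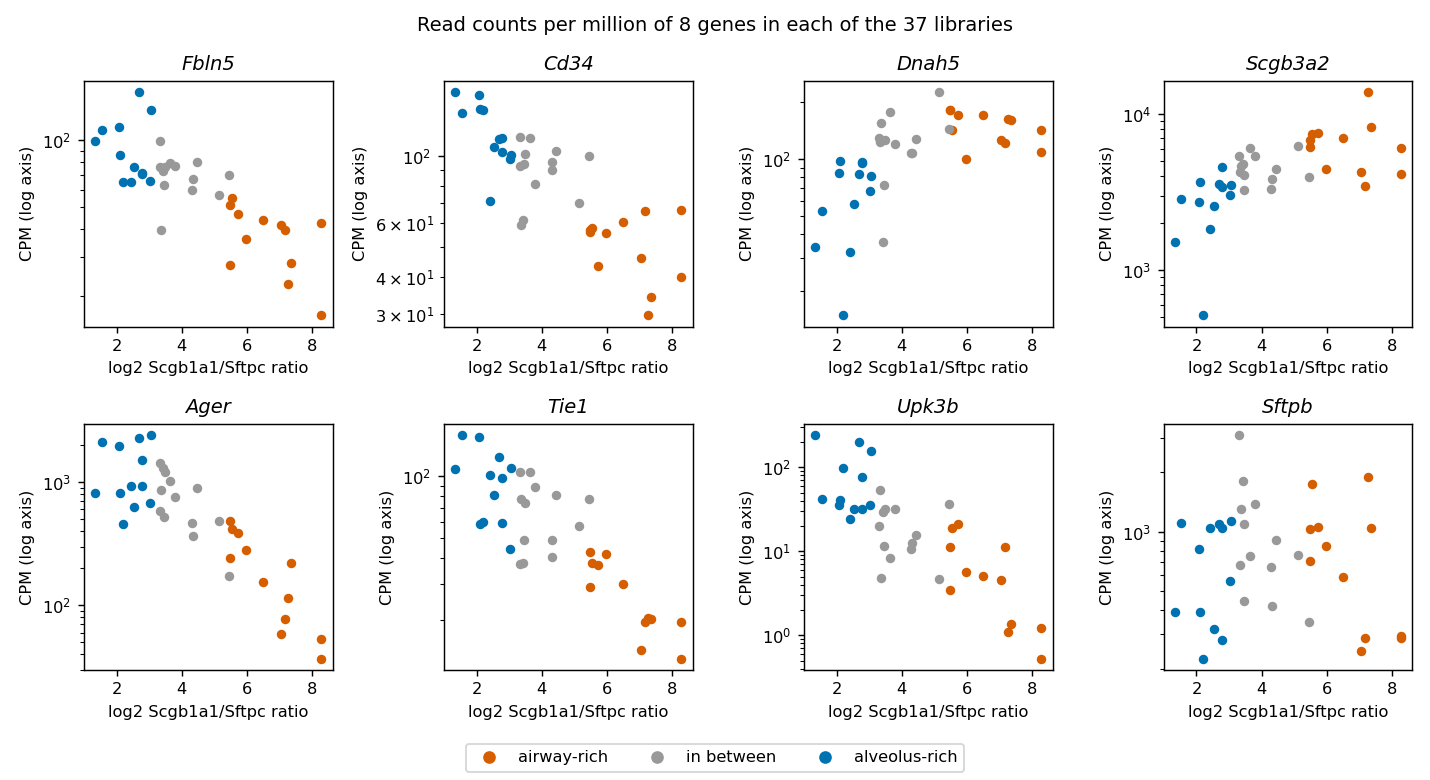
CPM (y axis, log scale) of 8 genes against the log2 ratio of Scgb1a1 to Sftpc (x axis), 1 point per library, 37 libraries coloured by class. Fbln5, Cd34, Tie1 and Upk3b fall and Dnah5 rises with the ratio with no overlap between the 12 airway-rich and 12 alveolus-rich libraries, Ager and Scgb3a2 overlap, and Sftpb shows no trend.

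Among genes of club and ciliated cells, none passed the test between the classes, and the 37-library fit called part of each list. The list of club cell secreted proteins also held membrane proteins and a keratin, such as Gabrp, Scnn1b and Krt15. Its median log2 fold change was 0.97 between the classes and 0.95 over all 37 libraries, where 2 of 15 rose and none fell. Scgb3a2, a secretoglobin of club cells like Scgb1a1, had 3449, 6526 and 13834 CPM in the lowest, median and highest airway-rich library and 513, 2948 and 4582 CPM in the alveolus-rich libraries. The ranges overlapped. Its change was 1.38 between the classes (SE 0.43, adjusted p = 0.123), 1.26 over all 37 libraries (SE 0.28, adjusted p = 0.00215) and 0.97 inside groups (adjusted p = 0.061). Lypd2, the other member called, rose over all 37 libraries by 1.56 (SE 0.32, adjusted p = 0.000854), with medians of 348 CPM in the airway-rich and 128 CPM in the alveolus-rich libraries.

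The metabolising enzymes of club cells did not move as 1 group. Their median was 0.71 between the classes and 0.34 over all 37 libraries, where 2 of 18 rose and 1 fell. Aldh3a1, an aldehyde dehydrogenase, rose by 1.14 (SE 0.26, adjusted p = 0.00268), with medians of 169 and 68.2 CPM in the airway-rich and alveolus-rich libraries. Fmo2, a flavin monooxygenase that is also expressed outside the airways, had medians of 219 and 338 CPM and fell by 0.78 (SE 0.24, adjusted p = 0.031). Cyp2f2, the most used marker of club cells beside Scgb1a1, did not pass the test: its change was 0.46 (SE 0.32, adjusted p = 0.376), and its CPM of 5797, 9586 and 16700 in the airway-rich libraries overlapped with 1155, 6708 and 10226 in the alveolus-rich libraries.

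Genes of motile cilia were higher in airway-rich than in alveolus-rich libraries in each of 5 lists by their medians, but passed the test in part only. The dynein arms, the motors that bend the cilium, had a median of 1.12 between the classes and 0.80 over all 37 libraries, where 8 of 14 rose. The corresponding medians were 1.00 and 0.70 for the radial spokes and central pair (2 of 11 rose), 0.93 and 0.52 for the assembly and docking factors (3 of 16), 1.01 and 0.57 for the doublet microtubule proteins (5 of 17) and 0.87 and 0.64 for the transcription factors of ciliated cells (1 of 8). None of these genes fell. The summed CPM of the dynein arm genes was 702 to 1367 (median 1260) in the airway-rich libraries and 145 to 799 (median 606) in the alveolus-rich libraries. The libraries in between had a median of 1002. In the airway-rich, in-between and alveolus-rich libraries the other medians were 713, 705 and 449 for the spokes and 649, 786 and 523 for the assembly factors. They were 2452, 2530 and 2026 for the doublet proteins and 266, 279 and 161 for the transcription factors. The airway-rich libraries were thus not above those in between in most of these lists. Without the 4 libraries high in Rn45s only 1 dynein arm gene was called and none of the spokes, assembly factors or doublet proteins; without the libraries rich in Acta1 the number of dynein arm genes called was again 8. Inside groups 1 doublet gene and no gene of the other 4 lists was called.

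Dnah5, the heavy chain of the outer dynein arm (chr15:28203752-28472052, plus strand), had 100, 152 and 181 CPM in the lowest, median and highest airway-rich library and 14.9, 74.6 and 98.2 CPM in the alveolus-rich libraries, with no overlap. Its log2 change was 1.34 between the classes (SE 0.37, adjusted p = 0.0997), 1.09 over all 37 libraries (SE 0.26, adjusted p = 0.00465) and 0.81 inside groups (adjusted p = 0.0533). The silicon group shows how much of this is between libraries of 1 class: the 4 alveolus-rich libraries had 14.9, 67.5, 95.7 and 98.2 CPM. Dynlrb2, a dynein light chain, had medians of 313 and 150 CPM in the airway-rich and alveolus-rich libraries and rose over all 37 libraries by 1.04 (SE 0.27, adjusted p = 0.00954). Dnah10, of an inner dynein arm, rose by 0.97 (adjusted p = 0.0176), Spag17, of the central pair, by 0.94 (adjusted p = 0.0241) and Cfap126, a ciliary protein of the doublet list, by 0.97 (adjusted p = 0.0118). Enkur, an inner protein of the doublet microtubules, rose by 0.74 (SE 0.23, adjusted p = 0.0348), with medians of 60.5 and 36.2 CPM.

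Of the regulators of ciliated cells, Myb rose over all 37 libraries by 0.84 (adjusted p = 0.0401), from a median of 24.2 CPM in the alveolus-rich to 43.5 CPM in the airway-rich libraries. Foxj1, the master regulator of motile cilia, had medians of 62.6 and 128 CPM, overlapping ranges and a change of 0.77 that did not pass the test (SE 0.30, adjusted p = 0.0935). Among 12 transcription factors of the airway epithelium 3 rose (Sox2, Grhl2 and Ehf), with a list median of 0.64 between the classes and 0.54 over all 37 libraries. Sox2, which sets airway identity in the developing lung, had 35.1, 51.8 and 63.3 CPM in the airway-rich and 10.2, 29.8 and 40.1 CPM in the alveolus-rich libraries. It rose by 0.97 over all 37 libraries (SE 0.20, adjusted p = 0.000817) and by 0.82 inside groups (adjusted p = 0.00548).

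For the cilia genes called over all 37 libraries, the 250 bases before each start site were searched for the letters GTTGCC on both strands (GGCAAC on the other), the core of the motif that RFX factors, regulators of cilia genes, bind. The bases were taken from the RefSeq promoters of GRCm38.p6, and a printed stretch ends where the first annotated exon begins, which can be before the RefSeq start. Of these 18 genes 16 had a promoter in that table, and 5 of these held the letters (31.2%), against 11.8% of all genes with a promoter and 10.4% of the 32851 promoters. A match is a description of letters, not of binding. Promoters of 2 genes are shown because each holds the letters, in capitals, close to the start of a called cilia gene. They are chr8:116504765-116504973 on the plus strand for Dynlrb2, 209 bases with the match 51 bases before the RefSeq start, which lies past the end of the stretch, and chr2:21205366-21205615 on the minus strand for Enkur, 250 bases with the match 34 bases before the RefSeq start, both printed 5′ to 3′ in the direction of the gene.
Dynlrb2: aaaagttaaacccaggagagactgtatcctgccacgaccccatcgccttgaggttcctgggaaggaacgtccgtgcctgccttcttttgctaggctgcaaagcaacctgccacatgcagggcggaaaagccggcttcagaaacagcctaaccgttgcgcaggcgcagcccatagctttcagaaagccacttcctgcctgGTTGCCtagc
Enkur: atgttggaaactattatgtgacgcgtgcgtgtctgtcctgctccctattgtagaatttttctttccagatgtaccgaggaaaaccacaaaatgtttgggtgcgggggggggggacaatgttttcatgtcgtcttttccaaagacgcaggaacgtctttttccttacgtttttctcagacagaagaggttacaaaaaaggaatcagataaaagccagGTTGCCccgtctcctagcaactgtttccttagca

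On the alveolar side, type 1 cell genes were lower in the airway-rich libraries. Their median log2 fold change was -1.12 between the classes, where none of 17 passed the test, and -1.13 over all 37 libraries, where 13 of 17 fell and none rose. Inside groups 11 fell. Without the libraries rich in Acta1 this number was 5, and without those high in Rn45s it was 13. Ager, the receptor for advanced glycation end products, a surface marker of type 1 cells (chr17:34597862-34600936, plus strand), had 36.9, 188 and 481 CPM in the airway-rich and 458, 931 and 2391 CPM in the alveolus-rich libraries. The classes overlapped only narrowly. Its change was -2.25 between the classes (SE 0.71, adjusted p = 0.127), -3.22 over all 37 libraries (SE 0.35, adjusted p = 1.32e-07) and -2.19 inside groups (adjusted p = 0.000897). Cldn18, a tight junction protein of the alveolar epithelium, fell by 2.27 over all 37 libraries (SE 0.32, adjusted p = 6.53e-06), Rtkn2, a marker of type 1 cells, by 1.80 (SE 0.34, adjusted p = 0.000417) and the homeodomain protein Hopx by 0.97 (SE 0.24, adjusted p = 0.00671).

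The type 2 genes split. In the list of surfactant and secretion genes 9 of 15 fell over all 37 libraries, with a median of -1.15 (-0.55 between the classes, none called), but 6 did not pass the test: Sftpa1, Sftpb, Sftpd, Abca3, Ctsh and Muc1. Lamp3, a protein of the lamellar bodies that store surfactant, had 5.38, 34.4 and 101 CPM in the airway-rich and 48.0, 119 and 273 CPM in the alveolus-rich libraries and fell by 2.63 (SE 0.34, adjusted p = 2.08e-06). Slc34a2, the phosphate transporter of type 2 cells, fell by 2.31 (SE 0.32, adjusted p = 5.45e-06), with medians of 140 and 430 CPM. Sftpb, surfactant protein B, which club cells also make (chr6:72304610-72314371, plus strand), had 247, 774 and 1894 CPM in the airway-rich and 226, 686 and 1132 CPM in the alveolus-rich libraries. Those ranges overlapped almost wholly, and its change was 0.42 between the classes (SE 0.50, adjusted p = 0.618) and -0.22 over all 37 libraries (SE 0.39, adjusted p = 0.766). Sftpa1, surfactant protein A, stood at medians of 2078 and 2346 CPM (-0.61 over all 37 libraries, SE 0.30, adjusted p = 0.194), and Abca3, the lipid pump of the lamellar body, at 51.6 and 63.9 CPM (-0.62, SE 0.23, adjusted p = 0.0832).

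Of 12 lipid synthesis genes of type 2 cells 7 fell over all 37 libraries (median -0.82), and of 8 transcription factors of the alveolar epithelium 3 fell (Etv5, Hopx and Tbx2; median -0.63). Etv5, an ETS factor needed to keep type 2 identity, had 16.9, 26.6 and 59.3 CPM in the airway-rich and 33.7, 53.8 and 114 CPM in the alveolus-rich libraries. The ranges overlapped, and the change over all 37 libraries was -1.02 (adjusted p = 0.00162).

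Most genes of the endothelial lists fell over all 37 libraries, though no member of these lists was called between the classes. All 20 pan-endothelial genes fell over all 37 libraries (median -1.57, against 0.07 for all genes), 19 of 20 fell inside groups, and the median between the classes was -1.07. All 13 capillary genes fell in both of the former fits (median -1.48 over all 37 libraries), as did 6 of 9 genes of large vessels and lymphatics over all 37 libraries (median -1.16). Without the libraries rich in Acta1, 13 of the 20 and 6 of the 13 were called, and without those high in Rn45s, 20 of the 20. The summed CPM of the pan-endothelial list was 415 to 1890 (median 910) in the airway-rich and 1303 to 6150 (median 3060) in the alveolus-rich libraries.

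Tie1, an endothelial receptor tyrosine kinase (chr4:118471191-118490061, minus strand), had 13, 24.7 and 42.7 CPM in the lowest, median and highest airway-rich library and 44.5, 99.8 and 158 CPM in the alveolus-rich libraries, with no overlap. Its change was -1.31 between the classes (SE 0.32, adjusted p = 0.0817) and -1.63 over all 37 libraries (SE 0.18, adjusted p = 1.55e-07). Its partner Tek, the angiopoietin receptor, had medians of 32.4 and 123 CPM in the airway-rich and alveolus-rich libraries and changed by -1.81 over all 37 libraries (SE 0.18, adjusted p = 2.29e-08). Pecam1, the adhesion protein between endothelial cells, fell by 1.16 (SE 0.20, adjusted p = 0.000116), with medians of 64.8 and 190 CPM, and the von Willebrand factor gene Vwf by 1.96 (SE 0.27, adjusted p = 4.5e-06), with medians of 54.7 and 210 CPM.

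Car4, a carbonic anhydrase that marks a subset of alveolar capillary cells, had 5.84, 22.8 and 59.7 CPM in the airway-rich and 29, 103 and 268 CPM in the alveolus-rich libraries. It fell by 2.29 over all 37 libraries (SE 0.27, adjusted p = 5.78e-07). Gpihbp1, which holds lipoprotein lipase on capillary walls, had medians of 29.6 and 101 CPM and fell by 1.84 (SE 0.18, adjusted p = 2.29e-08). Flt1, a receptor for vascular endothelial growth factor, had 11.3, 25.5 and 62.1 CPM in the airway-rich and 36.8, 66.3 and 159 CPM in the alveolus-rich libraries and fell by 1.44 (SE 0.26, adjusted p = 0.000188). Each of these 3 genes overlapped between the classes.

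The same stretch before the start sites was searched for AGGAAG on both strands (CTTCCT on the other), letters at the core of the motif of ETS factors, many of which act in endothelium. Of the 20 pan-endothelial genes 10 had a RefSeq promoter and 7 of these held the letters (70%), against 32.3% of all genes with a promoter and 29.5% of all promoters. Of the 17 genes called between the classes 14 had a promoter and 6 held the letters (42.9%). With 10 and 14 genes these shares are coarse. The promoter of Cd34 (chr1:194938571-194938818, plus strand, 248 bases, match 142 bases before the RefSeq start) is shown as that of a gene called between the classes, and that of Flt1 (chr5:147726012-147726261, minus strand, 250 bases) because it holds the letters 2 times. Capitals mark AGGAAG or CTTCCT, and both run 5′ to 3′ along the gene.
Cd34: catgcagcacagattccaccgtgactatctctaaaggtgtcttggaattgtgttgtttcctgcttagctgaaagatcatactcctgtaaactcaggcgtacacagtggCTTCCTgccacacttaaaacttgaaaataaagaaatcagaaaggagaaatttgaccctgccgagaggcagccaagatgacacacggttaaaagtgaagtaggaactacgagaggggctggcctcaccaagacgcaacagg
Flt1: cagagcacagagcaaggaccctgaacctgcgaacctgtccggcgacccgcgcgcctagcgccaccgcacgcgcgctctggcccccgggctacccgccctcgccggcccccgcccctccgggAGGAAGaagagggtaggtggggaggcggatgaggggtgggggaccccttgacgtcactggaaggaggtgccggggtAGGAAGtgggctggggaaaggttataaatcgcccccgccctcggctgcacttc

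The Notch pathway, which in the airway sets the balance of secretory and ciliated cells and in vessels guides sprouting, did not move as a list: its median was -0.08 between the classes and -0.09 over all 37 libraries, where 4 of 15 genes fell (Notch4, Dll1, Dll4 and Heyl) and none rose. Dll4, the ligand of arterial and capillary endothelium, had 3.86, 8.79 and 18.4 CPM in the airway-rich and 14.8, 28.0 and 50.8 CPM in the alveolus-rich libraries. Its ranges overlapped, and it fell by 1.47 over all 37 libraries (SE 0.21, adjusted p = 7.42e-06). Notch4, the receptor mainly of endothelium, fell by 1.14 (SE 0.25, adjusted p = 0.00176). The summed CPM of the 15 genes was 389 to 991 (median 551) and 340 to 774 (median 551) in the 2 classes.

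Stromal lists fell in part. Of 12 alveolar fibroblast genes 9 fell over all 37 libraries and 9 inside groups (medians -1.21 and -0.95), of 9 pericyte genes 5 (median -0.80 over all 37 libraries), and of 15 genes of adventitial fibroblasts and matrix 9 (median -0.64). Npnt, an integrin ligand of the alveolar wall, had 22.9, 59.0 and 106 CPM in the airway-rich and 62.2, 148 and 339 CPM in the alveolus-rich libraries and fell by 1.61 (adjusted p = 3.26e-06). Pdgfra, the platelet-derived growth factor receptor of alveolar fibroblasts, fell by 1.16 (adjusted p = 1.36e-05) and Tcf21, their transcription factor, by 1.80 (adjusted p = 2.61e-05). Cox4i2, a cytochrome oxidase subunit enriched in lung pericytes, fell by 2.14 (SE 0.31, adjusted p = 1.02e-05), with medians of 4.99 and 21.6 CPM. Mfap5, a microfibril protein of adventitial fibroblasts, fell by 1.08 (adjusted p = 0.000136), with medians of 33.2 and 72.5 CPM.

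The mesothelium was the 1 list with a member called between the classes, Gpm6a, and its median of -2.20 there was well below the -0.04 of all genes. Over all 37 libraries 6 of 9 genes fell (median -1.21). Upk3b, a uroplakin that marks mesothelium (chr5:136038496-136046487, plus strand), had 0.528, 4.80 and 20.9 CPM in the airway-rich and 24.2, 41.5 and 240 CPM in the alveolus-rich libraries. The classes did not overlap, and the change was -3.14 (SE 0.85, adjusted p = 0.0997) between them and -3.00 (SE 0.51, adjusted p = 9.33e-05) over all 37 libraries. Lrrn4, another surface protein of mesothelium, did not overlap either, at 0.525, 2.03 and 7.70 CPM against 8.78, 14.5 and 115 CPM, and fell by 2.69 over all 37 libraries (SE 0.48, adjusted p = 0.000188). Rspo1, a secreted activator of Wnt signalling made by mesothelium, fell by 1.41 (adjusted p = 8.76e-05), likewise with no overlap.

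**Figure D3:**
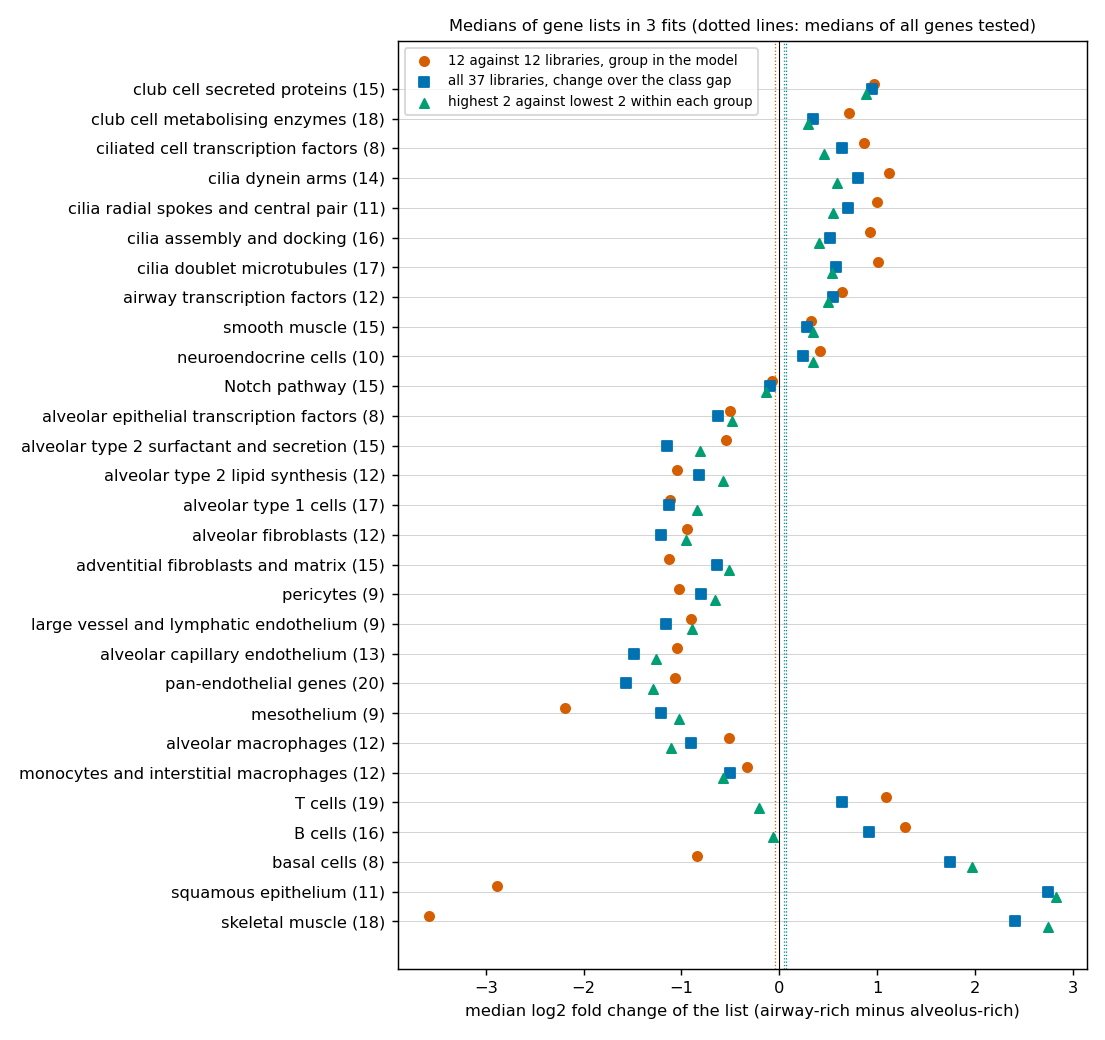
Median log2 change (x axis) of the tested genes in each of 29 gene lists (y axis) for 3 fits: 12 airway-rich against 12 alveolus-rich libraries, the log2 ratio over all 37 libraries, and the highest 2 against the lowest 2 inside each group. The cilia lists lie above 0 and the alveolar and endothelial lists below 0 in all 3 fits, whereas the skeletal muscle and squamous lists change sign between them.

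Alveolar macrophages, which sit in the air space, had 6 of 12 genes that fell over all 37 libraries (median -0.90, and -0.51 between the classes with none called). Chil3, a chitinase-like protein of these cells, had 1.58, 10.4 and 22.6 CPM in the airway-rich and 14.7, 50.2 and 283 CPM in the alveolus-rich libraries. The ranges overlapped slightly, and Chil3 fell by 3.33 (SE 0.56, adjusted p = 7.97e-05). Of 12 genes of monocytes and interstitial macrophages 3 fell (median -0.51).

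Of genes in none of the lists, Bmp6, a bone morphogenetic protein of the alveolar wall, had 0.803, 7.62 and 13.9 CPM in the airway-rich and 14.4, 39.5 and 104 CPM in the alveolus-rich libraries, with no overlap. It fell by 2.50 over all 37 libraries (adjusted p = 9.98e-06). Snora81, a small nucleolar RNA, went the other way, with 3.54, 10.7 and 72.2 CPM in the airway-rich and 0.470, 0.953 and 4.16 CPM in the alveolus-rich libraries. Its ranges overlapped slightly, and it rose by 2.60 over all 37 libraries (SE 0.50, adjusted p = 0.00047) and by 1.88 inside groups (adjusted p = 0.0124). Rn45s, the ribosomal RNA precursor, had medians of 42901 and 20982 CPM in the same classes and did not pass the test (1.30, SE 0.54, adjusted p = 0.121), and its part in the rise of Snora81 was not tested.

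Several other lists had no gene called between the classes. None of 15 smooth muscle genes passed the test in any of the 3 fits (median 0.32 between the classes): Acta2, smooth muscle actin, had 154, 466 and 1442 CPM in the airway-rich and 235, 368 and 1141 CPM in the alveolus-rich libraries, and Myh11, its myosin heavy chain, had medians of 134 and 97.2 CPM. No neuroendocrine gene of 10 passed either (median 0.41). The lists of basal cells, squamous epithelium and skeletal muscle had medians of -0.84, -2.89 and -3.58 between the classes but 1.75, 2.74 and 2.41 over all 37 libraries, with no gene called in either. Over all libraries without the lymphoid-rich and heart-rich, 6 of 11 squamous and 2 of 8 basal genes were called higher (medians 4.80 and 3.15), against 705 of all 17144 genes. DESeq2 over all 37 called 3 and 1 higher, against 1079 of all 17320 genes. Without the libraries rich in Acta1 the medians were 0.51 and 0.38, with none called. Krt5, the keratin of basal cells, ran from 0.0368 to 789 CPM in the airway-rich and from 0.142 to 560 CPM in the alveolus-rich libraries. Acta1 ran from 2.87 to 29653 and from 4.36 to 36927 CPM. Each of these spans both classes, so direction for these lists depended on the fit.

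T cell and B cell genes had positive medians between the classes (1.09 and 1.28) and over all 37 libraries (0.65 and 0.91), but not inside groups (-0.20 and -0.07). In the 37-library fit 1 of 16 B cell genes and none of 19 T cell genes was called. Summed over the B cell list, the airway-rich libraries ran from 131 to 3743 CPM (median 321) and the alveolus-rich libraries from 120 to 1581 CPM (median 283), and the highest values were those of libraries rich in Ccl19.

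**Figure D4:**
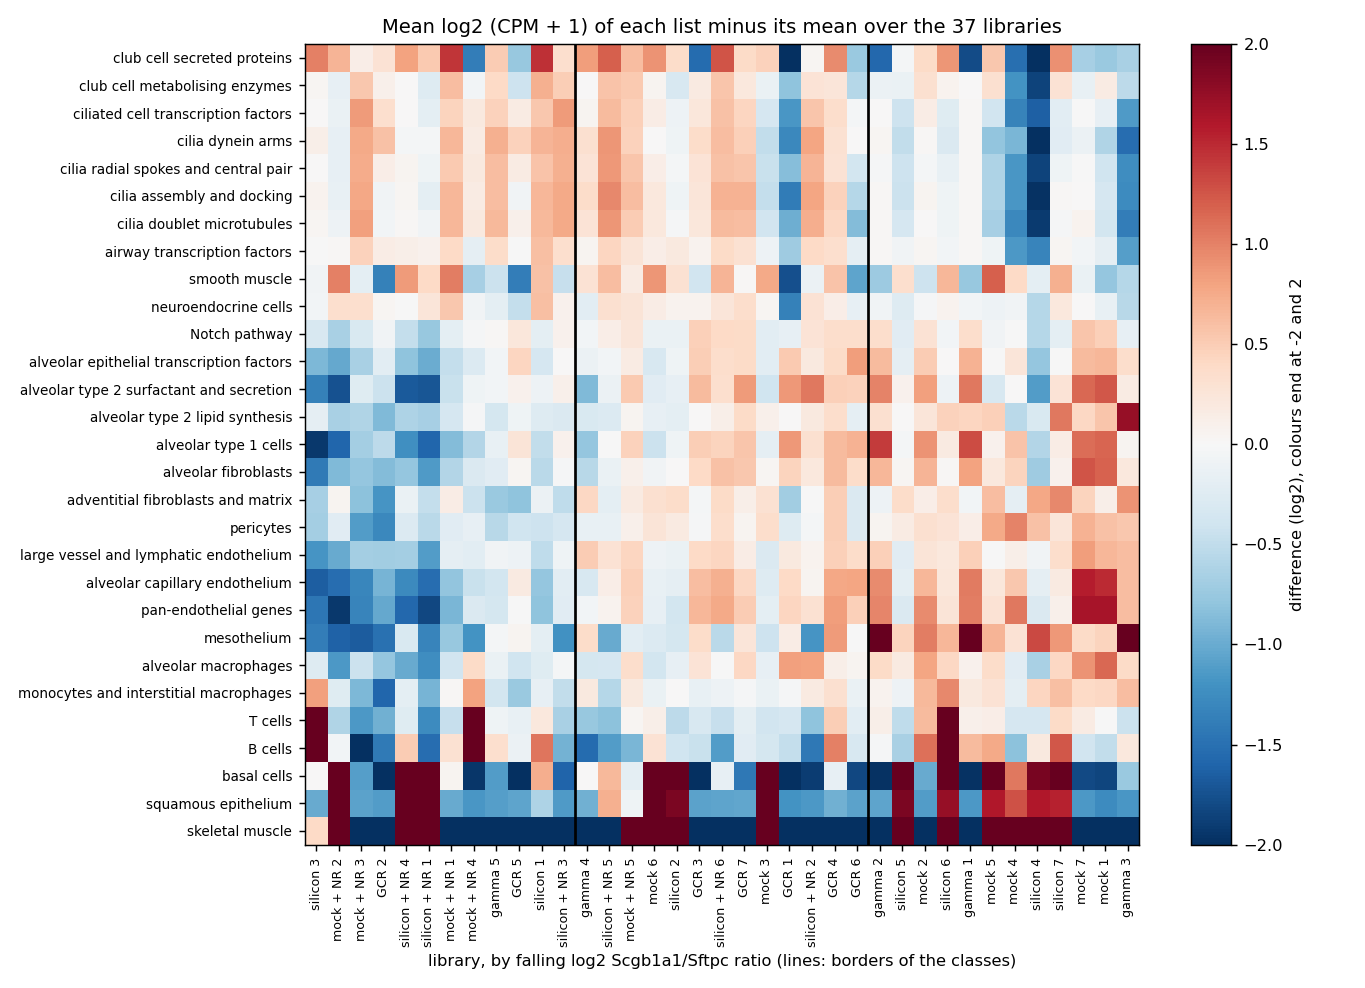
Mean log2(CPM + 1) of gene lists (rows), each centred on its mean over the 37 libraries, with libraries (columns) in order of falling log2 ratio; colours end at 2 units above and below the mean. Endothelial, alveolar and mesothelial lists are lowest at the left end of the order, cilia lists are low in silicon replicate 4, mock replicate 4 and gamma replicate 3 at the right end and in GCR replicate 1 in the middle, and the muscle and lymphoid lists are high in single libraries all along the order.

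The 2 genes of the ratio did not order the other genes alike. When the libraries were ranked by Sftpc alone, with the lowest 12 as the airway side, edgeR called 112 genes higher and 605 lower. When they were ranked by Scgb1a1 alone it called 2065 higher and 2893 lower, but several alveolar lists turned: the median was 0.67 for type 1 genes, 0.92 for type 2 surfactant genes, 0.43 for pan-endothelial, 0.29 for capillary and 0.47 for alveolar fibroblast genes, while the 4 lists of cilia parts lay between 0.90 and 0.99. The medians of type 2 lipid synthesis (-0.29), mesothelium (-0.64), adventitial fibroblasts and matrix (-0.45) and pericytes (-0.077) stayed below 0. In that ranking the skeletal muscle list had a median of -8.90, that is, muscle transcripts were lower in the class of high Scgb1a1. Ager, at -2.25 between the classes ranked by the ratio, was at 1.31 between the classes ranked by Scgb1a1 alone (adjusted p = 0.0551). Of the 17 genes called between the classes 15 kept their direction under every alternative run, and Gpm6a and Radil turned in that ranking only.

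The ratio also differed between mice of the study's groups. Since it chose the classes, its values are given as a description with no test. The mock + NR mice had a log2 ratio of 6.51 ± 1.44 (SD, n = 5), from 4.45 to 8.26, and the mock mice 2.74 ± 0.92 (SD, n = 7), from 1.54 to 4.33. These groups did not overlap, and their means were 3.78 apart (4.48 without the libraries rich in Acta1). The latter value rests on mock + NR replicates 1, 3 and 4 and mock replicates 1, 2 and 7. Where in the lung each piece was taken was not given in the sources used here, and whether treatment or the sampling of tissue set the ratio was not tested.

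The ratio was 4.31 ± 1.52 (SD, n = 7) in GCR mice, 4.03 ± 2.23 (SD, n = 7) in silicon mice and 3.65 ± 1.88 (SD, n = 5) in gamma mice, and each of these groups overlapped with the mock mice. The silicon + NR mice had 5.30 ± 1.62 (SD, n = 6), 1.27 above silicon. Without the libraries rich in Acta1 that difference was -2.49, but only silicon replicates 1 (5.49) and 3 (8.28) were then left in silicon. Mice labelled female, with gamma replicate 5 counted among them, had a mean ratio of 3.77 (n = 15), and males of 4.71 (n = 22).

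**Figure D5:**
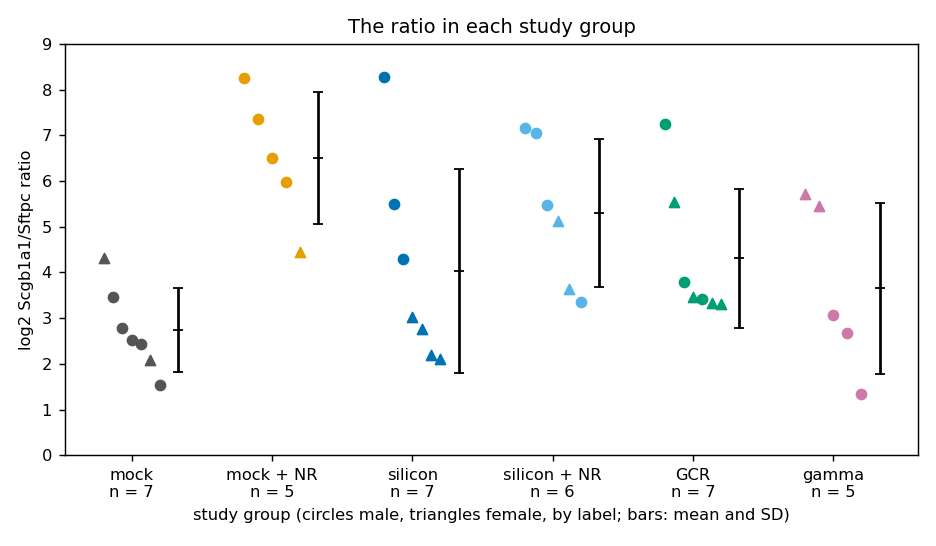
Log2 ratio of Scgb1a1 to Sftpc (y axis) of each mouse in the 6 study groups (x axis); circles are males and triangles females by label, and the bar and whiskers give the mean and SD. The 5 mock + NR mice (4.45 to 8.26) all lie above the 7 mock mice (1.54 to 4.33), and the silicon mice spread from 2.11 to 8.28.

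Because the ratio differed so much between mice, the radiation comparisons were fitted with and without it, with sex in both models. Sex was taken as labelled in every fit that held it, so gamma replicate 5 was fitted as female against its Xist and Y-linked counts. Silicon against mock called no gene by edgeR in either fit (0%); the unadjusted p was under 0.05 for 1100 genes with the ratio and 2204 without it, and DESeq2 with the ratio called 25. GCR against mock called 1924 genes (11.1%) with the ratio and 2806 (16.4%) without it. Gamma against mock called 17 genes (0.0982%) with it and 5 (0.0292%) without it. Mock + NR against mock called no gene by edgeR in either fit (0%), and none by DESeq2 with the ratio. The unadjusted p was under 0.05 for 460 genes with the ratio and 2886 without it. These groups did not overlap in the ratio, so the fit can hardly tell group from ratio. The lower number with the ratio therefore cannot show what the ratio accounts for.

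The GCR count rested on few libraries. Without those high in Rn45s it was 1 with the ratio and 0 without it. That step left out GCR replicates 2, 5 and 6 and mock replicate 4. The loss of mice and the level of Rn45s therefore cannot be told apart in it. With the ratio, leaving out 1 mouse of either group gave 13 (without GCR replicate 1), 20 (without mock replicate 6), 27 (without mock replicate 3), 28 (without GCR replicate 6), 203 (without GCR replicate 2), 643 (without mock replicate 5), 654 (without GCR replicate 5) or 3559 genes (without GCR replicate 4). Leaving out any of the other 6 mice gave 1598 to 2710 genes. For gamma the same step gave 4 to 27 genes.

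With the ratio in the model, list medians between mock + NR and mock moved, several of them towards 0: from 0.95 to 0.18 for the dynein arms, from 0.96 to 0.27 for the doublet proteins, from -1.07 to 0.12 for type 1 genes, from -1.53 to -0.25 for pan-endothelial genes and from -1.35 to -0.21 for mesothelium. Other medians crossed or moved away from 0: type 2 surfactant genes went from -0.38 to 0.41, the club cell secreted list from 0.74 to -0.31, basal cell genes from -0.53 to -2.58 and squamous genes from -0.67 to -3.33. No gene of these lists was called in either fit. Because mock + NR and mock did not overlap in the ratio, these moves cannot show what the ratio accounts for. Between silicon and mock the pan-endothelial median went from -1.35 to -0.79 and the type 1 median from -0.89 to -0.36. Between GCR and mock the dynein arms went from 0.90 (4 of 14 called higher) to 0.44, whereas type 1 genes went from 0.15 to 0.82 (3 of 17 called higher with the ratio), type 2 surfactant genes from 0.24 to 0.82 (6 of 15 called higher) and pan-endothelial genes from -0.46 to 0.25. Of all genes 1357 of 17119 were called higher in GCR without the ratio and 803 of 17320 with it. With the ratio, the GCR medians furthest from 0 were -7.90 for skeletal muscle, -5.81 for squamous and -4.31 for basal cell genes. Of these lists 17 of 18, 8 of 11 and 6 of 8 genes were called lower, against 1121 of all 17320 genes. Mock held libraries rich in Acta1 and GCR held none, and the part of this in the GCR calls was not tested. Between gamma and mock the mesothelium list was at 1.51 without the ratio and 1.68 with it, where 4 of 9 genes were called higher, against 17 of all 17320 genes.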

How the data were processed

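The authors deposited raw read counts per gene for whole lung RNA, made with SMART-seq v4 and Nextera XT per the labels' protocols, which mark neither strand nor molecules, so reads of a gene and an overlapping antisense gene cannot be told apart. The submitters' processing notes name HTSeq 0.13.5, STAR 2.5.2, Trimmomatic 0.36, MultiQC 1.12, FastQC 0.11.4 and the build mm10; the annotation was not given in the sources used here. Total counts ran from 9485197 to 66381526 per library.

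From these counts, edgeR 4.0.16 (R 4.3.3) fitted quasi-likelihood models with TMM factors, filterByExpr and study group as covariate. P-values were adjusted by Benjamini and Hochberg over all genes tested except Scgb1a1 and Sftpc and called under 0.05. Alternatives used DESeq2 1.42.0 and limma 3.58.1 (voom), other rankings, filters, covariates and libraries. Scripts were tested on simulated data. The ratio between groups is described without a test, because it chose the classes. Of 24421 symbols 95.72% matched GENCODE M21.

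The classes and the 45 gene lists were chosen with earlier results of these data known. Named genes are the 10 largest changes each way among those called (mean log2 CPM 2 or more), up to 3 called members of smallest p of each list, and fixed markers. That rule was applied also to the 37-library fit after its values were seen, and the other genes called between the classes, Enkur, Flt1, Aldh3a1, Myb, Ehf and members listed as not called were chosen after their values were seen. The labels give each library 1 mouse, and p-values measure the spread between mice.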

Additional observations from a re-analysis of the deposited data

How the results depend on the processing

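No paired analysis was possible because the labels give no replicate numbers that link mice of different groups. The counts of genes called between the classes (1 higher and 16 lower) moved with nearly every choice: higher and lower were 390 and 526 with DESeq2, 693 and 917 with limma voom and sample quality weights, 0 and 2 with RLE factors, 0 and 1 with Scgb1a1 and Sftpc removed before library sizes, 0 and 2 without the filter, 4 and 3 with sex added, 1584 and 1777 with no covariate, 0 and 3 for 9 against 9 libraries, 121 and 214 for 18 against 18, 569 and 1352 over all 37, 294 and 1107 inside groups, 2065 and 2893 ranked by Scgb1a1 alone, 112 and 605 by Sftpc alone, 0 and 0 without the libraries rich in Acta1, 0 and 11 without those high in Rn45s, 0 and 0 without the lymphoid-rich and heart-rich, 0 and 10 without the GCR libraries, and 0 and 0 inside groups without the libraries rich in Acta1. Leaving out 1 library gave 0 to 9 higher and 0 to 95 lower. The cause was not tested. Without the libraries rich in Acta1, the class fit rested on the gamma group alone. The fit inside groups then rested on GCR, gamma and mock + NR. Without the lymphoid-rich and heart-rich libraries, silicon replicates 3 and 6 and gamma replicate 3 were lost. Those counts of 0 cannot show whether the calls depended on the libraries left out. Over all 37 libraries (569 and 1352) the counts were 310 and 770 without the libraries rich in Acta1, 248 higher without those high in Rn45s, 1079 higher with DESeq2, and 232 to 1075 higher and 1161 to 1732 lower leaving out 1 library; without GCR replicate 2, gamma replicate 5, gamma replicate 3 and silicon replicate 3 they were 232, 294, 379 and 1075 higher.

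Ranked by Scgb1a1 alone, log2 fold changes turned for Gpm6a (0.064), Radil (0.23), Fmo2 (0.63), Ager (1.31), Hopx (0.65), Rtkn2 (0.66), Cldn18 (0.70), Lamp3 (0.85), Slc34a2 (0.92), Tek (0.13), Tie1 (0.48), Pecam1 (0.20), Gpihbp1 (0.32), Car4 (0.69), Vwf (0.61), Dll4 (0.51), Npnt (0.19), Pdgfra (0.26), Tcf21 (0.68), Cox4i2 (1.00), Rspo1 (0.088), Bmp6 (0.48), Chil3 (2.08), Flt1 (0.22), Snora81 (-0.23) and Rn45s (-0.38). The other turns were of genes with small or widely scattered changes. Sftpa1 was at -0.037 with voom and weights, -0.33 with no covariate, -0.61 over all 37, -0.21 for 9 against 9, -0.36 for 18 against 18, -0.41 inside groups, -0.79 by Sftpc alone, -0.25 without the libraries rich in Acta1 and -0.063 inside groups without them. Abca3 was at -0.15, -0.30, -0.62, -0.23, -0.28, -0.54, -0.85, -0.41 and -0.40 in the same order. Krt5 was at 0.068 with no covariate, 2.79 over all 37, 0.16 for 18 against 18, 3.36 inside groups, 0.39 by Sftpc alone, 1.70 without the libraries rich in Acta1, 1.51 without the lymphoid-rich and heart-rich and 1.09 inside groups without those rich in Acta1. Acta1 was at 0.016 with no covariate, 2.48 over all 37, 0.081 for 18 against 18, 2.52 inside groups and 0.22 inside groups without the libraries rich in it. Sftpb was at -0.22 over all 37 (0.11 there without the libraries rich in Acta1), -0.083 for 18 against 18, -0.27 inside groups and -0.066 by Sftpc alone. Acta2 was at -0.046 by Sftpc alone, -0.099 inside groups and -0.39 over all 37, both without the libraries rich in Acta1. Leaving out 1 library, Abca3 ran from -0.30 to 0.26, Krt5 from -3.65 to 0.14, Sftpa1 from -0.33 to 0.37 and Sftpb from -0.0035 to 0.72.

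The ratio of mock + NR against mock kept its direction (difference of medians 3.97; 4.48 without the libraries rich in Acta1; 3.34 to 4.29 leaving out 1 mouse). Silicon + NR against silicon turned to -2.49 without the libraries rich in Acta1, where only silicon replicates 1 and 3 were left in silicon. GCR against mock ran from 1.08 to 1.84 leaving out 1 mouse. With the ratio in the model, DESeq2 called 25 genes for silicon, 2948 for GCR and 335 for gamma; gamma gave 5 without the ratio and 4 without the ratio and the libraries high in Rn45s; GCR gave 1 with and 0 without the ratio when those libraries were left out. Leaving out 1 mouse gave 0 to 2 genes for silicon, 13 to 3559 for GCR and 4 to 27 for gamma. Depth limits the genes of low level: Ptprr, Fgf18, Xpnpep2, Upk3b, Lrrn4, Bmp6 and Krt5 fell below 1 CPM in some airway-rich libraries, as did Krt5 and Snora81 in some alveolus-rich libraries.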
